A study of Mus musculus with 4 samples.

Results

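A set of genes that use arginine, make itaconate, handle polyamines or mark macrophage polarization were taken by symbol from all 4 single-cell RNA-seq libraries. They are 6 of the 27998 genes in the feature list and all 6 were found: Nos2, Irg1, Odc1, Sat1, Retnla and Chil3. Irg1 is the older symbol of Acod1. The cells were CD45+ leukocytes taken with magnetic beads from tibialis anterior muscle of male mice aged 8 to 12 weeks after an injection of cardiotoxin, a snake venom toxin that kills muscle fibres and leaves the tissue able to regenerate. Controls were Bach1 fl/fl littermates, and Bach1-cKO mice carried the same floxed alleles with Lyz2-Cre, which is active in monocytes, macrophages and neutrophils but not in lymphocytes, so control animals had loxP sites and no recombinase. All were on a C57BL/6J background. There was 1 library for each genotype at 2 and at 4 days post-injury (dpi2 and dpi4), so no difference between libraries has a replicate check, no test was run, and mouse, library and genotype cannot be told apart.

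Inducible nitric oxide synthase (Nos2) turns arginine into nitric oxide and citrulline in stimulated macrophages. Ornithine decarboxylase (Odc1) makes putrescine, the first polyamine, from ornithine, and spermidine/spermine N1-acetyltransferase (Sat1) acetylates polyamines for export or breakdown. Irg1 diverts cis-aconitate from the citric acid cycle into itaconate, a metabolite of stimulated myeloid cells. Retnla (RELM-alpha, Fizz1) and Chil3 (Ym1) encode secreted proteins that are widely used to mark macrophages stimulated by IL-4, and Nos2 and Irg1 are used to mark classically stimulated ones. In injured muscle, neutrophils and monocytes arrive first and monocytes then become macrophages.

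In the GRCm38 build, GENCODE placed Odc1 at chr12:17544794-17551505 on the plus strand. Nos2 lay at chr11:78920787-78960254 (plus), Irg1 at chr14:103046977-103056573 (plus) and Sat1 at chrX:155213132-155216449 (minus). Retnla lay at chr16:48842551-48844461 (plus) and Chil3 at chr3:106147554-106167564 (minus). All 6 are protein-coding, and the 3′ reads behind these counts come from the ends of their transcripts.

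Promoter windows of 250 bases before to 50 after the start site were at hand for 5 of the 6 (RefSeq, GRCm38.p6): Irg1, Odc1, Sat1, Retnla and Chil3. They were searched on both strands for 4 motifs, namely the core of the antioxidant response element to which BACH1 and NRF2 bind (TGACNNNGC, in 12.4% of 32544 promoter windows), the AP-1 site (TGANTCA, in 7.79%), the STAT site (TTCNNNGAA, in 8.33%) and the STAT6 site (the same flanks with 4 bases between them, in 6.98%). The AP-1 letters can overlap those of the antioxidant core. Retnla and Chil3 held 1 match each and the other 3 windows held none. Both are shown because IL-4 is known to induce these genes through STAT6. Capitals mark the match: in Retnla a STAT6 site on the plus strand with its first base 145 bases before the start site (chr16:48842359-48842658, plus strand), and in Chil3 a STAT site 172 bases before it (chr3:106167515-106167814, minus strand). A match describes letters only.
Retnla: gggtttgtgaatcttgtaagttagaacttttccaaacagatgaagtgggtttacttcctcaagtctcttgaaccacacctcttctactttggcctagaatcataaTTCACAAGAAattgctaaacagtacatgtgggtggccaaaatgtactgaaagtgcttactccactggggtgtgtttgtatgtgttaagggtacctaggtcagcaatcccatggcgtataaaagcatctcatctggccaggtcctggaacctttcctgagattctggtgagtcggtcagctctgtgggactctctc
Chil3: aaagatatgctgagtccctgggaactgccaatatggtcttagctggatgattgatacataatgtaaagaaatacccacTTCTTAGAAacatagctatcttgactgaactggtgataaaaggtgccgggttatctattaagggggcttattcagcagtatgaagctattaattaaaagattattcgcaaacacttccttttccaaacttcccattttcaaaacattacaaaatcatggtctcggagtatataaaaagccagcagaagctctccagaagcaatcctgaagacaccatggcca

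The libraries held 4177 to 6602 barcodes and 57010520 to 80228489 UMIs, and 3433 to 5721 cells per library were kept, with 1 to 11 barcodes shared between the kept cells of any pair of libraries. Bach1 itself stood at 189 and 187 CPM (UMI counts scaled to 1000000 per library or class) in the control and Bach1-cKO libraries at dpi2 and at 207 and 217 CPM at dpi4. That comparison does not check the deletion, since these are counts per gene from 3′ libraries and do not separate the floxed exon from the rest of the transcript. Lyz2, the locus that carries Cre, stood at 9388 and 15845 CPM in the controls and at 17.5 and 21.6 CPM in Bach1-cKO, and Hmox1, the best known target of BACH1 repression, at 502 and 417 against 8190 and 6326 CPM, both in the direction of the labels. Bach1-cKO libraries thus differed from control in Lyz2 and Cre as well as in Bach1 genotype, and these cannot be told apart. Cells fell into 25 clusters built without the 6 genes or the pathway genes given further on, and the clusters were named from fixed markers. Macrophages numbered 1504, 752, 2999 and 2574 in control dpi2, Bach1-cKO dpi2, control dpi4 and Bach1-cKO dpi4, the order used throughout. Monocytes numbered 2513, 925, 47 and 58, and neutrophils 635, 839, 129 and 36. Dendritic cells numbered 312, 236, 381 and 416, and T or NK cells 103, 36, 80 and 132. Cluster 7 (Lyve1, Cd163), with 523, 390, 26 and 17 cells, scored alike for monocytes and macrophages and was kept apart. Cluster 6 (Cd209a), with 1045 cells the largest of the dendritic clusters, scored 3.314 for dendritic cells and 3.300 for monocytes. It kept the name of the higher score because 2 dendritic cell markers were among its leading genes, whereas cluster 7 had no own marker there. With clusters called within each library cluster 6 tied in Bach1-cKO dpi2 (3.241 for both) and was left unnamed there. Cluster 12, with 87, 472, 4 and 12 shallow cells, scored highest for neutrophils but was left unnamed.

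A level is the sum of a gene's UMIs over the cells of a class in a library, as CPM of all UMIs of that class, with a 95% exact Poisson interval. A ratio carries a 95% exact conditional binomial interval. Both cover counting error only and say nothing of how mice differ. A gene was called past the size rule when the pair of libraries held at least 50 of its UMIs, the ratio was at least 2-fold either way and the interval left out 1; the share of all scored genes past the same rule is given beside the first count of each class and comparison. T and NK cells, in which Lyz2-Cre is not active and which are not the usual source of Irg1, gave the background from free RNA and hidden doublets.

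**Figure D1:**
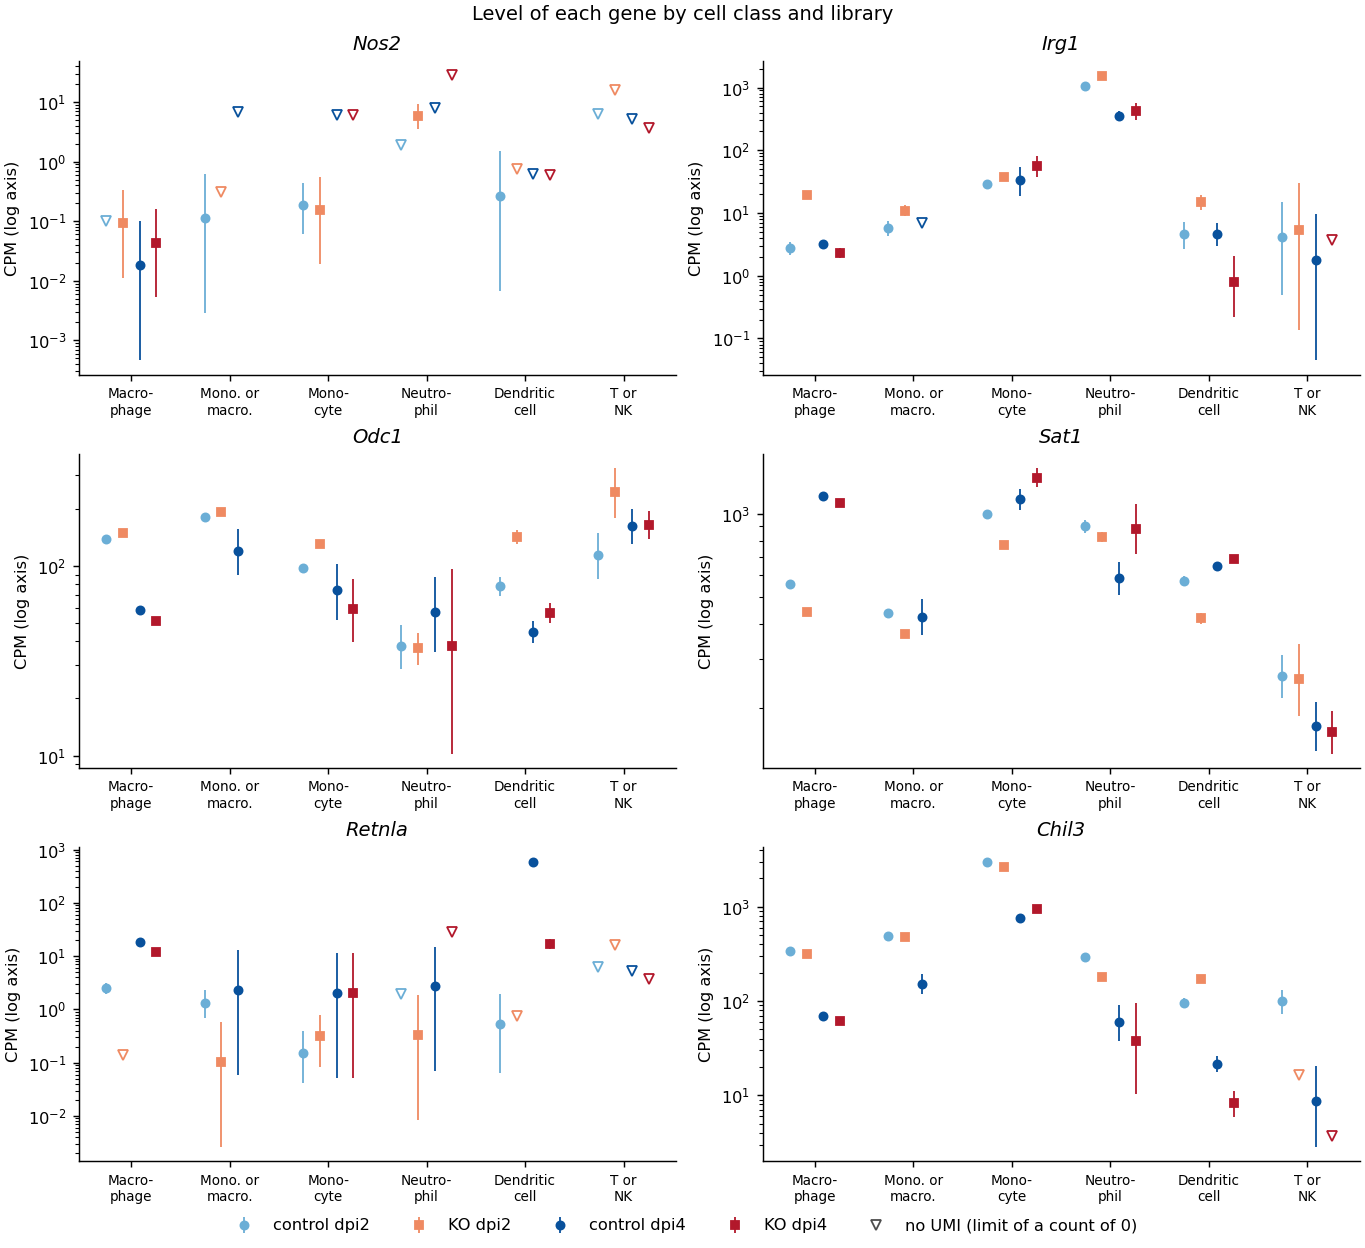
CPM (log axis) of each of the 6 genes in 6 cell classes and 4 libraries, with 95% exact Poisson intervals for counting error only; hollow triangles stand at the limit that a count of 0 allows, and classes under 20 cells are left out. Irg1 stands highest in neutrophils in all 4 libraries, Chil3 in monocytes, and Nos2 is at or near 0 in every class shown.

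Irg1, the itaconate-making enzyme, marked neutrophils. They had 1040 CPM (990 to 1092), 1522 (1478 to 1567), 355 (296 to 421) and 423 (309 to 566). The dpi2 values stood above the dpi4 values, and the dpi4 intervals overlapped each other. Thinned to 2000 UMIs per cell, 50.6% of 468 control neutrophils (95% exact binomial interval 46.0 to 55.3%) and 68.6% of 784 Bach1-cKO neutrophils (65.2 to 71.9%) had an Irg1 UMI at dpi2, and 24.4% and 27.3% at dpi4. The unthinned shares were 54.0%, 74.7%, 28.7% and 27.8%. T or NK cells, with median depths of 3952 to 5000.5 UMIs, gave 1 of 36 thinned cells in Bach1-cKO dpi2 (2.78%) and none in the other 3 libraries, where a count of 0 allows up to 2.97%, 4% and 2.34%. Cluster 12, the unnamed cells with neutrophil markers, had 966 CPM in control dpi2 and 1910 CPM in Bach1-cKO dpi2, with thinned shares of 47.9% and 74.4%. Monocytes were far lower, at 29.2, 36.9, 33.0 and 57.1 CPM. Dendritic cells had 4.57, 14.8 and 4.68 CPM in the first 3 libraries and 4 UMIs in the last. Macrophages were also far below neutrophils, at 2.73 (2.17 to 3.39), 19.6 (17.8 to 21.6), 3.16 (2.71 to 3.67) and 2.33 CPM (1.90 to 2.81), with Bach1-cKO dpi2 apart from the other 3. They stood below dendritic cells in both control libraries and above them in both Bach1-cKO libraries, and the intervals of these neighbours overlapped in each library. T or NK cells, the background, had 4.14 CPM (0.502 to 14.96) on 2 UMIs in control dpi2. In Bach1-cKO dpi2 they had 5.42 CPM (0.137 to 30.2) on 1 UMI. The macrophage and dendritic cell values of each dpi2 library lay within these wide intervals, so they were not set apart from that background. Thinned, 0.483% of 1449 control macrophages (0.194 to 0.993%) and 3.03% of 725 Bach1-cKO macrophages (1.91 to 4.56%) had an Irg1 UMI at dpi2. The unthinned shares were 3.46% and 15.8%, at median depths of 18849 and 27388.5 UMIs. At dpi4 the thinned shares were 0.548% and 0.520%. The 419 Irg1 UMIs of Bach1-cKO dpi2 macrophages lay in 119 of 752 cells, of which 11 cells had 10 UMIs or more.

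Nos2, the nitric oxide synthase, was almost undetected in leukocytes. Macrophages had 0, 2, 1 and 2 Nos2 UMIs in 1504, 752, 2999 and 2574 cells, and the 0 of control dpi2 allows up to 0.101 CPM. After thinning no macrophage had a Nos2 UMI, which allows shares of up to 0.207%, 0.414%, 0.103% and 0.120%. Monocytes had 5 and 2 UMIs at dpi2 and none at dpi4. The exception among leukocytes was Bach1-cKO dpi2 neutrophils, with 18 UMIs in 13 of 839 cells (5.95 CPM, 3.53 to 9.41), against none in 635 control neutrophils, where a count of 0 allows 1.92 CPM. Nos2 was steadily detected in the few endothelial cells that came through the CD45 beads. They numbered 18, 15, 32 and 40 and held 17, 13, 29 and 36 of the 24, 37, 30 and 40 Nos2 UMIs of all kept cells. At dpi4 this made 38.1 CPM (25.5 to 54.8) in control and 43.5 CPM (30.5 to 60.2) in Bach1-cKO, with overlapping intervals.

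Odc1 was spread over all classes. Macrophages had 138, 148, 58.6 and 51.3 CPM, so the days differed more than the genotypes. The undecided cells had 181 and 192 CPM at dpi2, monocytes 97.3, 131, 74.3 and 59.1 CPM, and neutrophils the lowest values at dpi2, 37.7 and 36.7 CPM. T or NK cells, at 114, 244, 162 and 165 CPM, lay within or above the range of the myeloid classes in each library, so Odc1 did not mark myeloid cells here. In dendritic cells it was 78.0, 142, 45.0 and 56.6 CPM.

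Sat1 was high in every myeloid class and lower in T or NK cells (261, 255, 173 and 164 CPM). Macrophages had 557 CPM (548 to 565), 441 (433 to 450), 1154 (1145 to 1163) and 1089 (1080 to 1099), and here the dpi4 libraries stood above the dpi2 libraries. Thinned, 63.6%, 55.6%, 84.2% and 83.8% of macrophages had a Sat1 UMI. Monocytes had 994, 772, 1127 and 1348 CPM and neutrophils 901, 824, 585 and 884 CPM. The undecided cells, at 441, 368 and 426 CPM in the first 3 libraries, did not share the high dpi4 values of the macrophages. Sat1 was also the most evenly held of the genes with enough thinned UMIs in macrophages, with 27.7 to 36.5% of its thinned UMIs in the top 10% of cells.

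Chil3 marked monocytes, at 2985 CPM (2964 to 3005), 2657 (2628 to 2685), 753 (678 to 835) and 938 (854 to 1028). The dpi4 values rest on only 47 and 58 cells. Thinned, 78.9% and 76.1% of monocytes had a Chil3 UMI at dpi2. The undecided cells followed with 489, 481 and 152 CPM in the first 3 libraries and macrophages with 336, 312, 69.0 and 61.2 CPM. Neutrophils had 290, 180, 59.6 and 37.6 CPM. T or NK cells had 99.4 CPM at control dpi2 and no UMI at Bach1-cKO dpi2, so the 96.3 CPM of control dendritic cells at dpi2 lay at that background. Other classes that should lack Chil3 were not as low in Bach1-cKO dpi2: 12 B cells had 475 CPM (28 UMIs) and 15 endothelial cells 401 CPM (155 UMIs), above its macrophages. Dendritic cells of the other libraries had 169, 21.4 and 8.20 CPM.

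Retnla was unlike the others: a handful of cells held nearly all of it. Over all kept cells the libraries had 92, 6, 3851 and 676 Retnla UMIs, in 16, 3, 174 and 37 cells. Only 2, 0, 16 and 12 cells had 10 UMIs or more. Dendritic cells had 0.538 CPM (2 UMIs), no UMI (up to 0.740 CPM), 574 CPM (553 to 595) and 17.0 CPM (13.6 to 21.0). The 574 CPM of control dpi4 came from 2816 UMIs, of which 1149 lay in a single cell and 805 in the next, and 10 of the 381 cells held 99.5%. The Bach1-cKO dpi4 value came from 85 UMIs in 5 cells. All but 2 of those 2816 UMIs, and all of the 85, were in cluster 6, the Cd209a dendritic cells. Macrophages had 2.49, 0, 18.3 and 12.2 CPM, on 74, 0, 1007 and 556 UMIs. There too a single cell held 67.6% of the UMIs in control dpi2 and 67.3% in control dpi4, whereas the highest of the 29 macrophages with Retnla in Bach1-cKO dpi4 held 19.1%. Among the 17 undecided cells of Bach1-cKO dpi4, 1 cell held all 33 UMIs. A mean level of Retnla therefore describes these few cells and not the class.

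**Figure D2:**
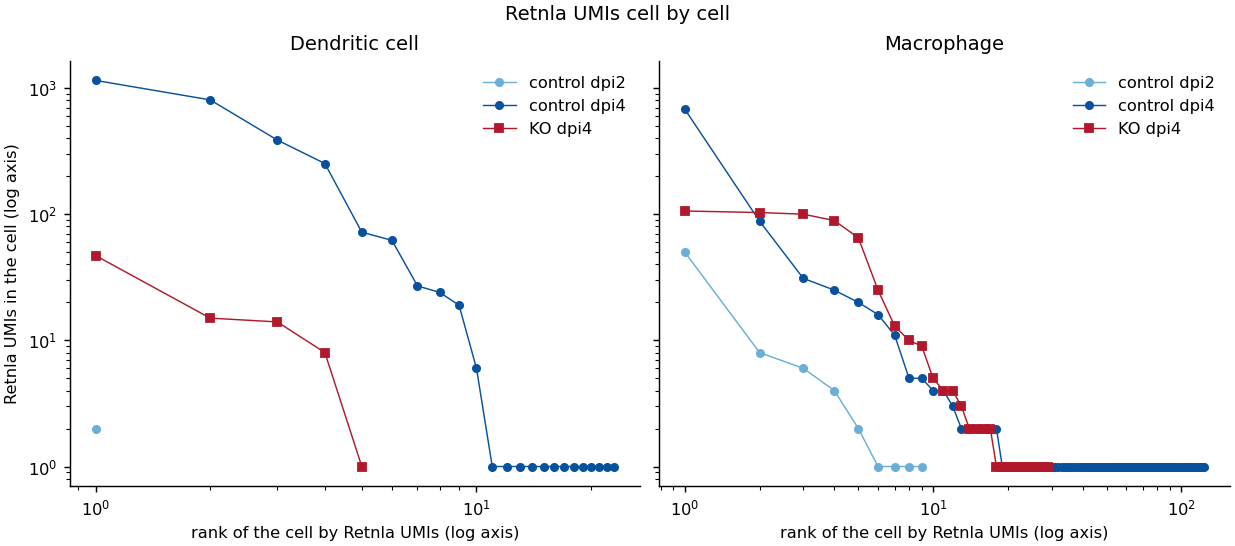
Retnla UMIs (log axis) in each cell that had any, ranked from the highest (log axis), for dendritic cells and macrophages of each library; Bach1-cKO dpi2 had none in either class. The 2 highest dendritic cells of control dpi4 had 1149 and 805 UMIs and the highest of Bach1-cKO dpi4 had 47, whereas among macrophages 8 Bach1-cKO and 7 control cells had 10 UMIs or more at dpi4.

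The first comparison asked how Bach1-cKO differed from control at dpi2. Most macrophages of control dpi2 were in cluster 4 (1181 of 1504) and most of Bach1-cKO dpi2 in cluster 14 (434 of 752). In macrophages 5 of the 6 genes were scored and 2 were past the size rule, 1 higher and 1 lower, beside 4.21% of 10794 scored genes. Irg1 was higher, with a log2 ratio of 2.85 (2.50 to 3.21), above 99.8% of all scored genes. Both Irg1 values, 2.73 and 19.6 CPM, lay within the intervals of T or NK cells, the background, whose part was not tested. With monocytes, undecided cells and macrophages pooled its ratio was 0.71, short of 2-fold. Retnla was at least 17.8-fold lower, taking 3 counts as the floor of a library with none, but 50 of the 74 control UMIs lay in 1 cell. Odc1 (0.10), Chil3 (-0.11) and Sat1 (-0.34) stayed within 2-fold. The itaconate enzyme was thus more than 2-fold higher in the Bach1-cKO library, and the enzyme that uses ornithine for polyamines was not.

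In monocytes at dpi2, none of 4 scored genes was past the rule, beside 4.28% of all scored genes. Irg1 (0.33) and Odc1 (0.43) were higher by less than 2-fold, and Sat1 (-0.37) and Chil3 (-0.17) lower by less. In the undecided cells none of 4 was past the rule either, beside 3.86%, and Irg1 came nearest (0.94). The neutrophil markers, all 7 detected, stood at 87.7 and 255 CPM in the undecided cells and at 199 and 405 CPM in monocytes, so they moved with Irg1 there too, and their part was not tested. In neutrophils none of 4 scored genes was past the rule, beside 9.31% of all scored genes, whose median log2 ratio was -0.30. Irg1 (0.55) lay above that median and Chil3 (-0.69) below it. The neutrophils' own 7 markers, all detected, stood higher in Bach1-cKO, at 52073 and 72776 CPM, and their part in the Irg1 value was not tested. The 7 monocyte markers, all detected, stood lower in Bach1-cKO neutrophils, as Chil3 did, at 1396 and 365 CPM. Their part in the Chil3 value was not tested. In dendritic cells 1 of 4 was past the rule, beside 3.02%. It was Irg1, higher at 1.70, with both values within the intervals of T or NK cells. The 7 neutrophil markers, all detected, summed to 127 and 325 CPM in these dendritic cells, so they moved with Irg1, and their part in it was not tested. In T or NK cells, with 36 Bach1-cKO cells, Odc1 was past the rule, at 1.10 (0.50 to 1.69, on 45 and 55 UMIs), as 1 of 2 scored genes beside 5.18%. The make-up of that class differed, with 30 T and 73 NK cells in control and 14 and 22 in Bach1-cKO, T cell markers (6 and 5 of 6 detected) at 861 and 1448 CPM, NK markers (all 8 detected) at 7503 and 4739 CPM and neutrophil markers (5 and 4 of 7 detected) at 39.3 and 222 CPM, and its part was not tested.

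**Figure D3:**
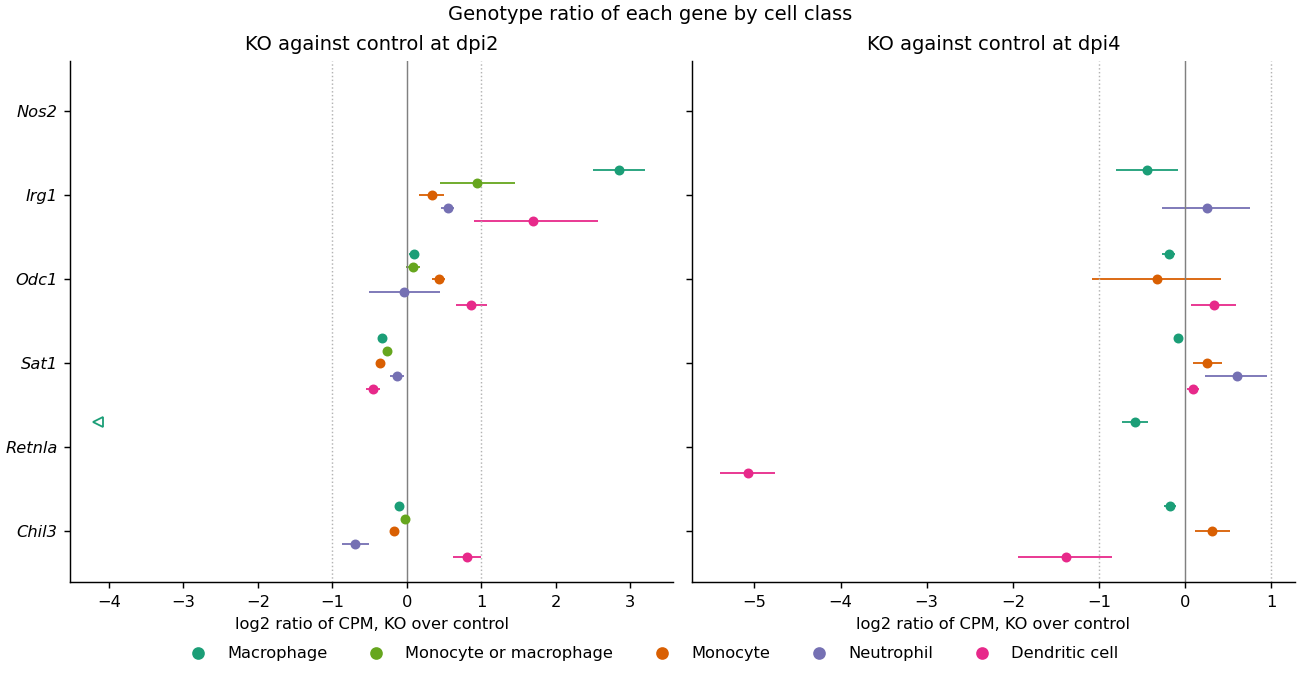
Log2 ratio of CPM, Bach1-cKO over control, of each scored gene in 5 cell classes (Nos2 was scored in none) at dpi2 (left) and dpi4 (right), with 95% exact conditional binomial intervals for counting error only; dotted lines mark 2-fold, and the hollow triangle marks the bound for Retnla, which had no UMI in Bach1-cKO dpi2 macrophages. Irg1 lies right of 2-fold in macrophages and dendritic cells at dpi2, Odc1 and Sat1 lie within 2-fold in each of these 5 classes, and Retnla of dendritic cells lies at -5.08 at dpi4.

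Among the monocyte, macrophage and undecided clusters, Irg1 was higher in Bach1-cKO in 7 of 7 clusters scored at dpi2 and past the rule in 3. Of all scored pairs of a gene and such a cluster, 3.79% were past the rule. The 3 were cluster 10 (Mmp12, Mfge8), with 25 control and 28 Bach1-cKO cells, at 9.35 and 48.2 CPM, cluster 11 (Cxcl10, Rsad2), the monocytes with interferon-response genes, with 39.9 and 100.01 CPM, and cluster 14 (Jag1, Ppbp) with 11.4 and 25.3 CPM. In cluster 4 (Pdpn, Spp1), which held 1181 control but 181 Bach1-cKO macrophages, Irg1 stood at 2.15 and 3.87 CPM, a ratio of 0.85. Its highest control value was that of cluster 8 (F10, Thbs1), monocytes with 48.9 CPM in control and 60.4 CPM in Bach1-cKO. Odc1 was past the rule in none of 9 clusters. It was higher in Bach1-cKO in 5 of them, the 3 monocyte clusters, the undecided cells and the cycling macrophages of cluster 15 (Top2a), and lower in 4, with 247 CPM in control and 164 CPM in Bach1-cKO in cluster 14. Sat1 (-0.39 to 0.04) was past the rule in none of 9 and Chil3 in 1 of 9, lower in the few cells of cluster 10 (-1.38).

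**Figure D4:**
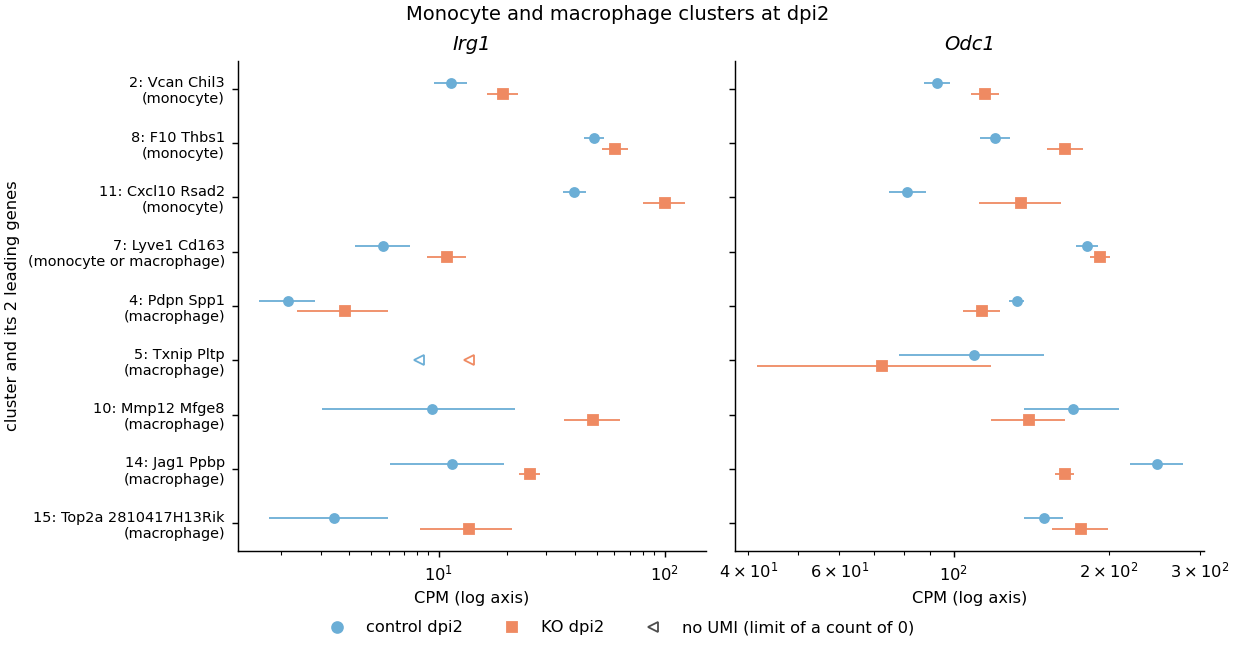
CPM (log axis) of Irg1 and Odc1 in 9 clusters of monocytes, undecided cells and macrophages at dpi2, control (circles) and Bach1-cKO (squares), with 95% exact Poisson intervals; hollow triangles stand at the limit that a count of 0 allows. The Irg1 squares lie right of the circles in each cluster with UMIs in both libraries, highest at 100.01 CPM in cluster 11, whereas the Odc1 squares lie right of the circles in 5 clusters and left of them in 4.

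The mix of clusters differed between the libraries, and the Irg1 ratio was smaller with the mix fixed. With the UMI shares of Bach1-cKO macrophages over clusters set to those of control, the log2 ratio at dpi2 was 1.26 for Irg1 instead of 2.85. Neutrophil markers moved with Irg1: the 7 markers, all detected, summed to 106 CPM in control and 271 CPM in Bach1-cKO macrophages at dpi2, against 52073 and 72776 CPM in neutrophils. That is 0.203% and 0.372% of the level in neutrophils, whereas Irg1 in macrophages stood at 0.262% and 1.29% of its levels in neutrophils. In thinned Bach1-cKO macrophages the Irg1 share (3.03%) was close to that of T or NK cells (2.78%, 1 of 36 cells). The part of neutrophil RNA in the Irg1 value was not tested.

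At dpi4 control macrophages were most often in cluster 1 (1424 of 2999 cells) and Bach1-cKO macrophages most often in cluster 9 (793 cells, Slc40a1, Vcam1). In macrophages none of 5 scored genes was past the rule, beside 2.29% of 11941 scored genes. Retnla (-0.58), Irg1 (-0.44), Odc1 (-0.19), Chil3 (-0.17) and Sat1 (-0.08) were lower by less than 2-fold. Retnla was past the rule under 4 alternatives, among them at -1.73 without the 10 cells with most Retnla in each library, while the mean over cells of each cell's CPM gave 0.27. It went both ways over the clusters: of 5 scored it was past the rule higher in 3 and lower in 1, beside 2.21% of all scored pairs of a gene and a cluster, with 184 CPM in control and no UMI in Bach1-cKO in the cycling cells of cluster 15, but 1.88 and 31.6 CPM in cluster 10. In the first case 678 of the 738 control UMIs came from 1 cell, and in the second 4 cells had 10 UMIs or more.

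In dendritic cells at dpi4, 2 of 4 scored genes were past the rule, beside 1.41% of all scored genes, both lower: Retnla with a log2 ratio of -5.08 (-5.41 to -4.77) and Chil3 with -1.38 (-1.94 to -0.85). Chil3, on 41 and 105 UMIs, stood at -0.57 with doublets kept. Markers of other cells moved the same way in these dendritic cells, from control to Bach1-cKO: the 7 neutrophil markers from 114 to 17.0 CPM (7 and 6 detected), the 10 macrophage markers, all detected, from 6029 to 3426 CPM and the 8 muscle markers from 37.1 to 15.4 CPM (8 and 6 detected). Their part was not tested. The 10 cells with most Retnla held 2803 of the 2816 control UMIs and all 85 of Bach1-cKO, so without them the gene was too low to score. In monocytes none of 3 was past the rule beside 3.78%, and in neutrophils none of 2 beside 6.10%, where Sat1 stood at 0.60 (0.23 to 0.95).

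From dpi2 to dpi4 the genes moved in 2 directions in macrophages. In control 4 of 5 scored genes were past the rule, beside 16.2% of all scored genes, and in Bach1-cKO 5 of 5, beside 13.5%. Chil3 was lower at dpi4 by log2 ratios of -2.28 in control and -2.35 in Bach1-cKO, and Odc1 by -1.24 and -1.53. Chil3 also fell in classes that should lack it. In T or NK cells it went from 99.4 to 8.80 CPM in control, with no UMI on either day in Bach1-cKO. In the few endothelial cells it went from 95.5 to 1.31 CPM in control and from 401 to 7.25 CPM in Bach1-cKO. The part of that background in the macrophage values was not tested. Sat1 was higher, by 1.05 and 1.30. The enzyme that starts polyamine synthesis and the one that acetylates polyamines thus went in opposite directions in both genotypes. Over the class as a whole Irg1 differed little between the days in control (0.21), and was lower at dpi4 in Bach1-cKO (-3.08). The neutrophil markers of these macrophages followed, from 106 to 96.2 CPM in control and from 271 to 73.3 CPM in Bach1-cKO, and their part was not tested. Of 4 monocyte, macrophage or undecided clusters scored in control, Irg1 was lower at dpi4 in 4 and past the rule in 0. With the mix of clusters fixed, its control ratio was -0.52 by the mix of dpi2 and 0.01 by that of dpi4. In Bach1-cKO these were -4.85 and -2.88. Retnla was higher at dpi4, by 2.88 in control and at least 86.9-fold in Bach1-cKO, which had none at dpi2. The control direction differed between clusters: of 3 scored, Retnla was past the rule higher in cluster 15 (5.09) and lower in cluster 10 (-5.66, 51 UMIs at dpi2 and 22 at dpi4), beside 7.92% of all scored pairs of a gene and a cluster. With the mix of clusters fixed the control ratio of Retnla was 3.21 by the mix of dpi2 and -0.38 by that of dpi4. A single cell held 678 of the 1007 control macrophage UMIs of Retnla at dpi4, and another held 50 of the 74 at dpi2. These ratios therefore rest largely on single cells. Different mice were used on the 2 days. Over the clusters present on both days, with the mix of dpi4 set to that of dpi2, the ratios of Odc1 were -0.77 and -0.27 and those of Sat1 0.14 and 0.56, all smaller than the pooled values, and those of Chil3 -2.37 and -3.15. With the mix of dpi2 set to that of dpi4 instead, Chil3 stood at -0.94 and -2.38, Odc1 at -0.90 and -0.92 and Sat1 at 0.60 and 0.78.

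In monocytes 1 of 4 genes was past the rule over time in control, beside 6.89%, and 2 of 4 in Bach1-cKO, beside 8.43%. Chil3 was lower at dpi4 in both, by -1.99 and -1.50, and Odc1 by -1.15 in Bach1-cKO. In these monocytes the 10 macrophage markers, all detected, went from 3474 to 12595 CPM in control and from 3691 to 6559 CPM in Bach1-cKO, and the 7 monocyte markers, all detected, from 8560 to 5595 CPM and from 6181 to 8375 CPM. Their part was not tested. In neutrophils 2 of 4 were past the rule in control, beside 15.4%, and 2 of 4 in Bach1-cKO, beside 18.4%. Both times these were Irg1 (-1.55 and -1.85) and Chil3 (-2.28 and -2.26), lower at dpi4. The neutrophils' own markers went from 52073 to 34391 CPM in control and from 72776 to 34277 CPM in Bach1-cKO, macrophage markers from 603 to 3172 CPM and from 476 to 3367 CPM, and monocyte markers from 1396 to 379 CPM and from 365 to 602 CPM. All markers were detected, except 1 of the 7 monocyte markers in Bach1-cKO at dpi4, and their part was not tested either. In dendritic cells 2 of 4 were past the rule in control, beside 7.56%, and 4 of 5 in Bach1-cKO, beside 6.43%. Chil3 was lower by -2.17 and -4.37, while in T or NK cells, the background, it went from 99.4 to 8.80 CPM in control, and the part of that background was not tested. The other in control was Retnla, higher by 10.06 (8.20 to 13.11, 2816 UMIs against 2), and the 3 others in Bach1-cKO were Irg1, Odc1 (lower) and Retnla (higher, at least 23.0-fold). From dpi2 to dpi4 the summed neutrophil markers of these cells went from 127 to 114 CPM in control and from 325 to 17.0 CPM in Bach1-cKO. Their monocyte markers went from 3933 to 1803 CPM and from 2303 to 1849 CPM, and their macrophage markers from 495 to 6029 CPM and from 872 to 3426 CPM. The part of these markers in the differences was not tested.

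Genes of the same pathways were counted in macrophages from 5 lists, which include the 6 genes. The share of all scored macrophage genes past the rule, in either direction, was 4.21% at dpi2 and 2.29% at dpi4 between the genotypes, and 16.2% in control and 13.5% in Bach1-cKO over time. At dpi2, of the genes that supply and use arginine, 14 of 20 were scored, 1 was past the rule higher and 1 lower in Bach1-cKO, with a median log2 ratio of -0.06 beside -0.02 over all genes. These were Ass1, which remakes arginine from citrulline (1.37, 6.47 and 16.7 CPM), and Slc7a2, a cationic amino acid transporter (-1.28, 2.96 and 1.22 CPM). None of 18 polyamine genes was past the rule (median -0.04), and of 14 itaconate and citric acid cycle genes only Irg1 was (median 0.07). Of the alternative activation genes 5 of 17 were past the rule higher and 1, Retnla, lower, with a median of 0.58. The higher ones included the PD-1 ligand gene Pdcd1lg2 (1.88), the chemokine gene Ccl24 (1.78), Ear2 (1.29) and the cytokine gene Il10 (1.21). Of the classical activation genes 7 of 15 were past the rule higher and 1 lower, with a median of 0.83. The lower gene, Cxcl10, stood at -1.02 and is named although the rule for names did not pick it. The higher ones included Il6 (3.85, 0.573 and 8.24 CPM), the NAD-consuming enzyme Cd38 (2.65, 8.35 and 52.3 CPM), the formyl peptide receptor Fpr2 (2.50) and the chemokine gene Ccl5 (2.39). Ccl5 is also a leading gene of the T and NK clusters, and the 8 NK markers (7 detected in each library) summed to 0.977 and 6.46 CPM in these macrophages, beside the neutrophil markers at 106 and 271 CPM. Their part in the list values was not tested. With monocytes and macrophages pooled, Ear2 was lower (-0.42), and with the cluster mix fixed Il10 was lower (-0.14). At dpi4 the counts were 0 of 15, 0 of 19, 0 of 14, 1 of 18 (Ccl22, 1.43, but -0.99 with clusters called within each library) and 1 of 16 (Cxcl9, 1.28) in the same order of lists, both higher, with medians from -0.09 to 0.11 beside 0.02 over all genes.

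From dpi2 to dpi4, 1 polyamine gene was higher and 4 lower in control, and 1 higher and 3 lower in Bach1-cKO, each of 18 scored. Sat1 was the higher gene both times. The lower ones were Odc1, spermidine synthase Srm (-1.78 and -1.54), the antizyme inhibitor Azin1 (-1.57 and -1.29) and, in control, spermine synthase Sms (54.5 CPM at dpi4 and 109 CPM at dpi2). Of 15 arginine genes 1 was higher and 3 lower in control and 3 higher and 3 lower in Bach1-cKO. Ddah1, which breaks down an inhibitor of nitric oxide synthases, was among the higher ones in both (73 UMIs against 1, and 60 against 0), and the transporter Slc7a1 was among the lower ones (-1.64 and -1.43). The 8 muscle markers moved over time in the same cells, with 7 detected and 7.07 CPM in sum at dpi2 and all detected and 52.0 CPM at dpi4 in control, and 6.04 CPM (6 detected) and 33.5 CPM (8 detected) in Bach1-cKO. Their part in these differences was not tested. Of the itaconate list only Idh3a (-1.28) in control and Irg1 in Bach1-cKO were past the rule, of 14, a smaller share than over all genes. Classical activation genes were past the rule higher in 9 of 16 and lower in 0 in control (median 1.60 beside -0.05 over all genes), and higher in 5 and lower in 4 in Bach1-cKO (median 0.36 beside -0.03). The interferon-induced chemokine gene Cxcl9 went from 0.101 to 8.17 CPM in control and from 0.187 to 19.9 CPM in Bach1-cKO, whereas Il6 was lower at dpi4 in Bach1-cKO (-1.92). Alternative activation genes were higher in 5 and lower in 1 of 17 in control and higher in 3 and lower in 2 of 18 in Bach1-cKO, with Ear2 higher in both (2.67 and 1.80), although not with monocytes and macrophages pooled (-0.82 and -0.004).

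The genes were also counted in pairs. Among 725 thinned Bach1-cKO macrophages at dpi2, Odc1 and Sat1 met in 61 cells, beside 67.8 that the product of their shares gives. In control they met in 204 of 1449 cells, beside 193. In neutrophils of Bach1-cKO dpi2, 7 of the 9 thinned cells with Nos2 also had Irg1, beside 6.18.

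Likeness of pattern was measured over 23 profiles, 1 for each of 6 classes in each library with 20 cells or more, by Pearson's r of log2(CPM + 1) among 11362 genes; these profiles share libraries and cell types, so r only describes them. Irg1 lay nearest to Hdc (0.95), Scnn1a (0.94) and Lcn2 (0.94). Odc1 lay nearest to Nme1 (0.90), Exosc1 (0.89) and Eif2s2 (0.88), and Sat1 to Prkcd (0.88), Bach1 (0.88) and Lyn (0.86). Odc1 and Sat1 ran against each other (-0.72). Chil3 lay nearest to Thbs1 (0.91), Cd177 (0.90) and Rac1 (0.90), and Retnla, less closely, to Aldh1a2 (0.76), Dnase1l3 (0.75) and Plxna4 (0.75). A handful of cells held nearly all Retnla, so its values do not describe the pattern of whole classes. Nos2 had too few UMIs for this measure to be read.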

How the data were processed

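Per the labels and the study's methods, the authors ran 10x Genomics 3′ libraries through Cell Ranger 6.1.2 on mm10 and deposited raw UMI counts per gene and barcode (lowest barcode 500 to 501 UMIs). The labels name v2 chemistry and the methods a v3.1 kit. Only these counts, with barcodes and gene symbols, were used.

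Cells with at least 500 genes and under 10% mitochondrial UMIs were kept, and the highest Scrublet scores (0.8% per 1000 cells) were removed as doublets. The 4 libraries were clustered together without batch correction (2000 variable genes, 30 components, 15 neighbours, Leiden resolution 1; scanpy 1.11.5, leidenalg 0.10.2), holding out 92 genes of interest. Clusters were named from fixed markers, 86 of 89 of which matched. With 1 library per group there were no tests. CPM, ratios and their intervals came from summed counts (scipy 1.17.1), and for shares of cells each cell was thinned to 2000 UMIs. The size rule was tested on simulated Poisson counts with known fold changes, based on the macrophage sums of dpi2. These held no differences between mice, cells or cluster mixes, so that test covers counting error only. The 6 genes, the lists and the rules were chosen with earlier results of these data known. From each list at most 4 non-members past the rule were named per comparison, those with the largest ratios. The alternatives tried were other filters on cells, thresholds, cluster settings, class borders and cluster mixes. Monocyte and neutrophil values at dpi4 rest on 36 to 129 cells and are the least precise. 2 further genes of the set are not reported here.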

Additional observations from a re-analysis of the deposited data

Results flagged for a closer look

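The results here were picked out because the same contrast pointed opposite ways in 2 groups, with both counting intervals leaving out 1 and at least 1 of the 2 ratios past the size rule; with 1 library per group none of these differences was tested.

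Irg1 in macrophages had a log2 ratio of Bach1-cKO over control of 2.85 at dpi2 (419 and 81 UMIs) and of -0.44 at dpi4 (106 and 174 UMIs). With the cluster mix of Bach1-cKO set to that of control the dpi4 value was -0.04, and with that of control set to Bach1-cKO it was -0.45. Of 3 clusters scored at dpi4 Irg1 was higher in 2 and past the size rule in none. Neutrophils made up 22.8% and 11.1% of kept cells in Bach1-cKO and control at dpi2, and 1.05% and 3.09% at dpi4, without cluster 12. That unnamed cluster scored highest for neutrophils and held 472 and 87 cells at dpi2 and 12 and 4 at dpi4. The share of named neutrophils moved the same way as the Irg1 of macrophages, and its part was not tested.

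Chil3 in dendritic cells had a log2 ratio of Bach1-cKO over control of 0.81 at dpi2 (686 and 358 UMIs) and of -1.38 at dpi4 (41 and 105 UMIs). Without the 10 cells with most Chil3 in each library the dpi2 value was -0.16. From control to Bach1-cKO at dpi2, the macrophage markers of these cells went from 495 to 872 CPM and the neutrophil markers from 127 to 325 CPM. Their monocyte markers went the other way, from 3933 to 2303 CPM. The part of these markers was not tested.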

How the results depend on the processing

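No paired analysis was possible because each group is 1 library and replicate numbers were given in accession order. No library was left out.

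Of 74 ratios of the 6 genes, 28 were past the size rule. All 28 stayed past it after recentring on the median gene, with a minimum of 10 UMIs or at 1.5-fold (which added 11), and 23 with a minimum of 200 UMIs. With clusters called within each library, 24 of the 26 computed stayed, with doublets kept, 26 of 27, and with monocytes and macrophages pooled, 12 of 14. Reassigning cluster 12 (to neutrophils) or cluster 7 (to macrophages), leaving out the 10 cells with most UMIs of a gene and fixing the cluster mix were chosen after seeing the data, and kept 4 of 4, 11 of 11, 16 of 17 and 8 of 12. These counts cover only the ratios that could be computed. Without the 10 highest cells these were 58 of the 74, with 17 of the 28 among them, and the rest are not counted as kept or lost. The cause of a change was not tested.

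In macrophages at dpi2 the count between genotypes went from 2 to 1 with a minimum of 200 UMIs, with monocytes and macrophages pooled or without the 10 highest cells, and at dpi4 from 0 to 1 under a 5% mitochondrial limit, Leiden resolution 2, clusters within each library or without the 10 highest cells. Over time it went from 4 to 2 in control and from 5 to 3 in Bach1-cKO with the mix of dpi4 set to that of dpi2; set the other way, none of the 4 control ratios reached 2-fold (Chil3 -0.94, Odc1 -0.90, Retnla -0.38, Sat1 0.60). In monocytes at dpi2 it went from 0 to 1 with monocytes and macrophages pooled. In neutrophils at dpi2 it went from 0 to 1 with a minimum of 10 UMIs, doublets kept or at 1.5-fold. In dendritic cells at dpi4 it went from 2 to 1 with a minimum of 200 UMIs or doublets kept, and to 0 without the 10 highest cells.

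In macrophages, pooling monocytes and macrophages reversed the sign of Ear2 at dpi2 (-0.42) and over time (-0.82 in control, -0.004 in Bach1-cKO) and Pdcd1lg2 over time in control (-0.036). Fixing the mix reversed Il10 at dpi2 (-0.14), Clec10a (-0.27) and Gbp2 (-0.32) over time in control and Cxcl10 over time in Bach1-cKO (-0.49). Clusters within each library reversed Ccl22 at dpi4 (-0.99).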
